A study of Mus musculus with 18 samples.

Results

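Of 6 complement genes chosen for description (C4b, C3, C1qa, C1qb, C1qc and Serping1), 5 had a probeset that the platform annotation ties to a single gene, out of 19937 genes measured on 18 arrays of mouse hypothalamus. No probeset carried the name of C3, the central component of the cascade, and its level was not analysed here. C4b was chosen from measured values, for its opposite pattern to Wfs1, so its relation to Wfs1 is given as a description with no test. The mice were described as Wfs1 wild type or mutant, with the genetic background written 129SV for each sample and 129S6 for the series. Wfs1 encodes wolframin, a membrane protein of the endoplasmic reticulum whose loss causes Wolfram syndrome in humans. The sources used here do not give how the mutation was made, the age or sex of the mice, or whether each array came from its own animal. The p-values below therefore rest on array-to-array spread, which may be technical.

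Complement is a cascade of secreted proteins that tags targets for removal. In the classical pathway the C1q complex, built from A, B and C chains, binds a target and activates the proteases C1r and C1s, which cleave C4 and C2. The resulting convertase cleaves C3, and C3 fragments are bound by receptors on phagocytes. In the brain C1q is made chiefly by microglia, C4 is made by astrocytes and other glia, and the pathway is known for tagging synapses. Mice carry C4b and a near-identical copy, C4a. Serping1 encodes the C1 inhibitor, which inactivates C1r and C1s.

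Each array had a pair of genotype labels. The title ending gave 10 ko and 8 wt arrays, and the genotype field 9 KO and 9 WT. They gave the same genotype on 9 arrays and opposite genotypes on the other 9. Arrays are named here by ending, field and number, so that ko/KO 4 is the fourth array with both labels mutant. There were 5 ko/KO, 5 ko/WT, 4 wt/KO and 4 wt/WT arrays. Any 2 arrays correlated over all probesets with r from 0.975 to 0.991. Of 11 measured hypothalamic peptide genes, Avp (vasopressin) ran from 9.44 to 10.89, Oxt (oxytocin) from 10.02 to 11.15 and Npy (neuropeptide Y) from 8.69 to 9.92 log2 units, and the lowest was Crh (corticotropin-releasing hormone) at 5.77 to 6.64. On Xist and on Ttr single arrays stood apart. In ko/WT 4, Xist, the RNA of the inactive X chromosome, was at 5.93 against 10.31 to 10.79 on the others. In wt/WT 3, Ttr, a choroid plexus gene, was at 12.80 against 8.01 to 10.62. The mean of 3 blood markers was highest on wt/KO 2, at 6.92 against at most 6.53 on the others. Without ko/WT 4 and wt/WT 3, the differences between the Wfs1 sets given below were 0.59 for C4b, -0.02 for C1qa, 0.14 for C1qb, -0.01 for C1qc and 0.04 for Serping1. Wfs1, the gene that the labels name, followed neither label. Its level ran from 7.86 to 8.07 on 10 arrays and from 8.36 to 8.72 on the other 8, with no array in the gap around 8.2. The lower set held 4 arrays ending ko and 6 ending wt, and 5 field KO and 5 field WT arrays. The sets are described below as arrays with Wfs1 below or above 8.2, and neither is taken as a genotype. The genotype labels are thus in doubt, and a difference by label compares only arrays so labelled. The last number in each title was lower on every array ending ko than on any ending wt, while the genotype fields were mixed along it. What that number stands for was not examined.

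C4b, which encodes the complement component cleaved by C1s, was higher on every array with Wfs1 below 8.2 than on any array above it. In the 10 arrays below, C4b ran from 8.36 (wt/WT 2) through a median of 8.465 to 8.61 (ko/KO 4). In the 8 arrays above, it ran from 7.64 (ko/KO 2) through a median of 7.855 to 8.19 (ko/KO 3). The sets did not overlap and their medians differed by 0.61 log2 units, a 1.53-fold difference. Just inside and just outside the threshold, ko/WT 3 (Wfs1 8.07) had C4b at 8.42 and ko/WT 5 (Wfs1 8.36) had C4b at 7.85. Of 19937 genes, 4 (0.0201%) had values that did not overlap between the sets. C4b was the only one of them higher where Wfs1 was below (0.00502%). The other 3, lower there (0.015%), were Wfs1 itself, Cmtm5 at a difference of medians of -0.19 and Wbp1 at -0.10. Since C4b was chosen for this contrast, its rank among genes is no evidence.

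**Figure D1:**
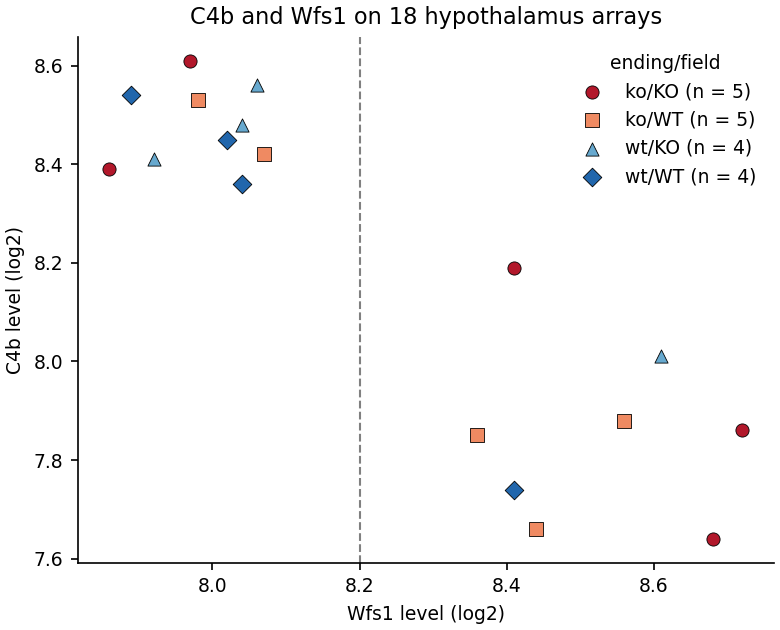
Level of C4b (vertical axis, log2) against that of Wfs1 (horizontal axis, log2), with 1 point per array, shape and colour by title ending and genotype field, and a dashed line at a Wfs1 level of 8.2. The 10 arrays left of the line have C4b at 8.36 to 8.61 and the 8 arrays right of it at 7.64 to 8.19, with arrays of each of the 4 label pairs on both sides.

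Within each set C4b and Wfs1 were only weakly related. Their correlation was r = 0.021 over the 10 arrays below 8.2 and r = -0.15 over the 8 above. C4b varied more among the arrays above (SD 0.18, n = 8) than among those below (SD 0.082, n = 10). Its SD over all 18 arrays was 0.34 log2 units, exceeded by 0.903% of genes. Within the sets its SD was 0.14, close to the median SD of all genes within the sets (0.13).

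C4a, the near-identical neighbouring copy, leaned the same way by a smaller amount. On the arrays with Wfs1 below 8.2 it ran from 6.93 through a median of 7.23 to 7.41, and on those above from 6.74 through 6.99 to 7.31. These ranges overlapped, and the medians differed by 0.24. The degree to which either C4 probeset reads transcripts of the other copy was not tested, so C4b and C4a are uncertain as separate values. Without C4b itself, 7 of 12 measured genes in the stretch of chromosome 17 around it had a higher median where Wfs1 was below, beside 45.5% of all genes. Apart from C4b and C4a the differences there ran from -0.125 for Atf6b, which encodes a stress-responsive transcription factor, to 0.12 for Cfb, the alternative pathway protease.

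The 5 genes most like C4b over the 18 arrays were Heyl, Thbs2, Gfap, Sytl4 and Cpne5. The likeness was measured by Pearson's r and reflects mostly the step between the Wfs1 sets, so r within each set is given beside it. The highest was Heyl, a transcription factor gene activated by Notch, at r = 0.83 (0.27 within the 10 arrays below, 0.60 within the 8 above). It was followed by Thbs2, a secreted matrix glycoprotein gene, at r = 0.81 (0.34 and 0.61). Gfap, the intermediate filament gene of astrocytes, was next at r = 0.79 (0.62 and 0.51). Sytl4, a vesicle docking gene, had r = 0.76 but -0.33 and 0.55 within the sets, and Cpne5, a copine gene, had r = 0.75 (0.20 and 0.95).

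At the opposite end, after Wfs1 (r = -0.88), stood Mir592 at r = -0.84 (0.21 and -0.87 within the sets) and the adhesion receptor gene Adgre5 at r = -0.78 (-0.12 and -0.49). The splicing factor gene Tra2a had r = -0.73 (0.44 and -0.38), and the palmitoyltransferase gene Zdhhc6 r = -0.72 (-0.044 and -0.22). With the means of the sets removed, the genes most like C4b were different ones: Golm1 (r = 0.76), Necap2 (0.75), Msrb2 (0.75), Tcof1 (0.75) and Ccdc115 (0.73). None of these 5 was among the 5 most like it over all arrays.

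Gfap showed how far a glial gene shared the C4b pattern. It ran from 8.91 through a median of 9.12 to 9.35 on the arrays with Wfs1 below 8.2, and from 8.55 through 8.78 to 9.14 on those above. The ranges overlapped because wt/KO 3 (9.13) and ko/KO 1 (9.14), both with Wfs1 above 8.2, had Gfap levels among those of the lower set while their C4b was 8.01 and 7.86. Of 16 measured genes of reactive astrocytes, 9 were higher and 6 lower by median where Wfs1 was below, with a list median of 0.048 beside -0.005 over all genes. The largest differences were Gfap at 0.34, the elastic fibre protein gene Fbln5 at 0.32 and the chemokine gene Cxcl10 at 0.25. By mean Cxcl10 differed by 0.18, and its highest value, 7.49, was on an array with Wfs1 above 8.2. The mean level of the 16 genes correlated with C4b at r = 0.76 over 18 arrays (0.29 within the lower set, 0.82 within the upper).

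Markers of other cells moved with the same contrast in part. General astrocyte markers were lower for 7 of 10 (list median -0.045), with the metabolic enzyme gene Aldh1l1 at -0.17 and the gap junction gene Gja1 at -0.155. The mean level of these 10 ran from 10.50 to 10.74 below and from 10.54 to 10.79 above. All 10 measured oligodendrocyte markers were lower where Wfs1 was below, beside 51.1% of all genes, with a list median of -0.21. The myelin genes Mal and Ugt8a, at -0.265 and -0.26, had the largest differences. The mean level of these 10 ran from 9.66 to 10.06 on the arrays below and from 9.91 to 10.22 on those above, and the part of oligodendrocyte content in the C4b difference was not tested. In whole tissue, fewer cells of a type and less RNA per cell cannot be told apart. Within the sets C4b correlated with that mean at r = 0.53 and 0.039. Of 16 interferon response and MHC class I genes 6 were higher and 9 lower (list median -0.02). The largest difference was Ifit1, an interferon-induced antiviral gene, at 0.315. By mean Ifit1 differed by 0.14, and its highest value, 6.55, was on an array with Wfs1 above 8.2. Of 11 hypothalamic peptide genes 9 were higher (list median 0.105), as were 8 of 10 choroid plexus markers (list median 0.058), beside 45.5% of all genes. The largest peptide differences were Avp at 0.325 and Npy at 0.305, both with overlapping ranges. Among the choroid plexus markers the largest difference was that of Ttr, lower by median (-0.43) but higher by mean (0.11), with its highest value on wt/WT 3. Clic6 came next at 0.3. The endothelial (3 of 7 higher), perivascular macrophage (2 of 6), ependymal (3 of 5), blood (2 of 3), meningeal (4 of 8) and neuronal (2 of 8) markers had list medians between -0.018 and 0.055.

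**Figure D2:**
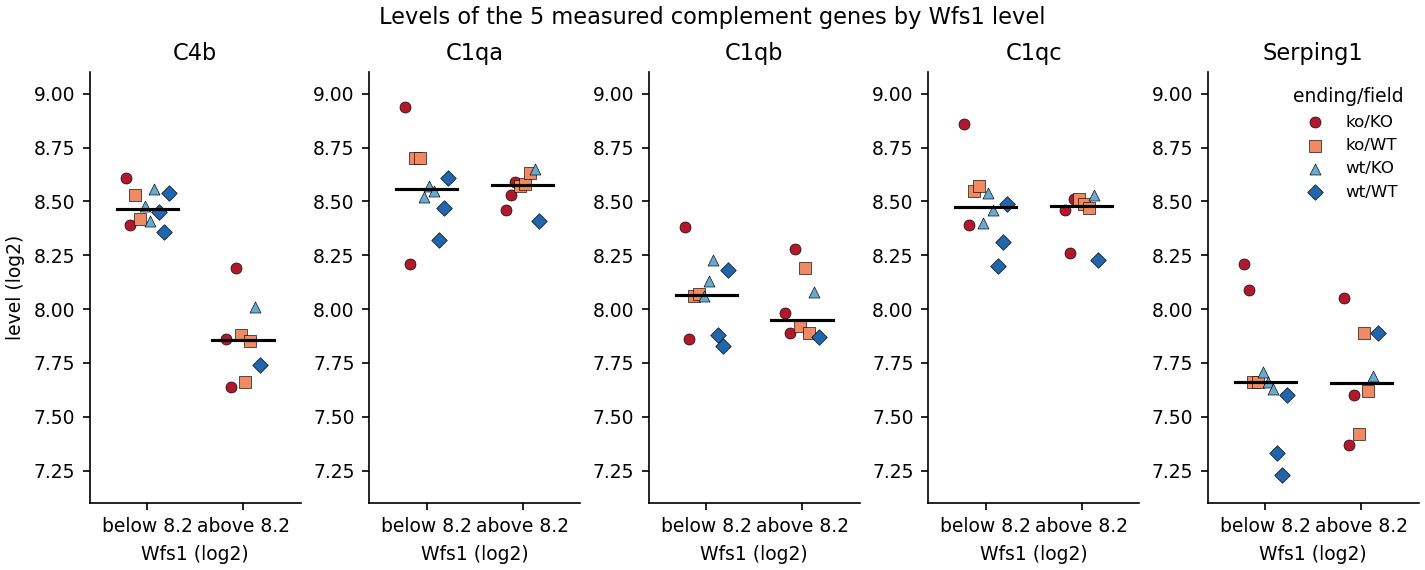
Levels (vertical axes, log2) of the 5 measured genes on the 10 arrays with Wfs1 below 8.2 and the 8 above it, with 1 point per array, shape and colour by title ending and genotype field, and a bar at each median. The sets are apart for C4b, with medians of 8.465 and 7.855, and overlap for C1qa, C1qb, C1qc and Serping1.

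The C1q chain genes did not share the C4b step. C1qa, the A chain gene, ran from 8.21 through a median of 8.56 to 8.94 on the arrays with Wfs1 below 8.2, and from 8.41 through 8.575 to 8.65 on those above. C1qb, the B chain gene, ran from 7.83 through 8.065 to 8.38 below and from 7.87 through 7.95 to 8.28 above. C1qc, the C chain gene, ran from 8.2 through 8.475 to 8.86 below and from 8.23 through 8.48 to 8.53 above. The sets overlapped for each chain, and the medians differed by -0.015, 0.115 and -0.005. The SDs over 18 arrays were 0.16, 0.16 and 0.15, near the median of 0.13 over all genes. The array ko/KO 4 was the highest for each chain, and ko/KO 5 the lowest for C1qa, wt/WT 2 for C1qb and wt/WT 1 for C1qc.

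The chains varied together over the 18 arrays. C1qa and C1qc correlated at r = 0.82 (rho = 0.88), and each was the most like gene of the other among 19936 genes. C1qb correlated with C1qc at r = 0.75 and with C1qa at r = 0.68. By likeness C1qc was at rank 6 for C1qb, and C1qb at rank 9 for C1qc. The genes were listed with covariation in view, so these values carry no test. The points share the processing of their array, and 95% of all genes had r below 0.45 with C1qa, 0.43 with C1qb and 0.48 with C1qc. The relation was closer among the 10 arrays with Wfs1 below 8.2, at r = 0.87 for C1qa with C1qc, 0.83 for C1qb with C1qc and 0.81 for C1qa with C1qb. Without ko/KO 4 those of the lower set were 0.77, 0.70 and 0.69. Among the 8 above the values were 0.71, 0.58 and 0.41. Part of it rested on ko/KO 4, without which the pairs fell to r = 0.71, 0.64 and 0.54. Without the arrays farthest from the median of C1qa (ko/KO 4 and ko/KO 5), C1qa correlated with C1qc at 0.85 and with C1qb at 0.49. Without those farthest from that of C1qb (ko/KO 4 and wt/WT 2), C1qb and C1qc correlated at 0.61.

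**Figure D3:**
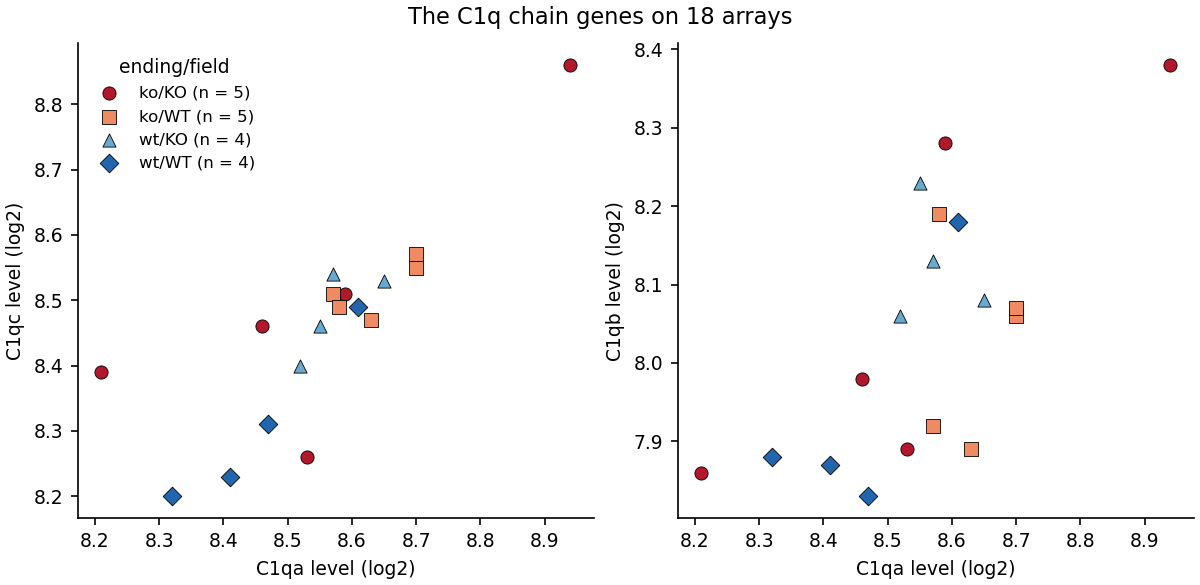
Level of C1qc (left) and of C1qb (right) against that of C1qa, in log2 units on both axes, with 1 point per array and shape and colour by title ending and genotype field. Both rise with C1qa (r = 0.82 and 0.68 over 18 arrays), and the point at the upper right is ko/KO 4.

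The C1q genes lie side by side on chromosome 4, on the minus strand. The sources used here held no promoter sequence for C1qa, C4b or Serping1. For C1qb and C1qc, the 250 bases before their RefSeq start sites are shown (GRCm38.p6, minus strand, chr4:136886201-136886450 and chr4:136892915-136893164). Capitals mark matches to AGGAAG on either strand, the core letters read by ETS factors such as PU.1 of the myeloid lineage.
C1qb: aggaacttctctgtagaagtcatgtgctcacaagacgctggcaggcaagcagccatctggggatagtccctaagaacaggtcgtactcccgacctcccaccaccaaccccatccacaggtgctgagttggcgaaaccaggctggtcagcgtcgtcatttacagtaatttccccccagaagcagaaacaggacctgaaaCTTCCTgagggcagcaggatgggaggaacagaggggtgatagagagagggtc
C1qc: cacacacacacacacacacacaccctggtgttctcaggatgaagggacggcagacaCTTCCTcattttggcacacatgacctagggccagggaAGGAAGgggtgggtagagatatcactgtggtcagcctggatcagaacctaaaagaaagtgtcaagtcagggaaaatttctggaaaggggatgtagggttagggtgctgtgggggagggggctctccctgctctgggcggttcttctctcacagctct
The search covered 4 motifs on both strands, and none overlapped another here. AGGAAG or its reverse occurred once before C1qb, 52 bases before the start, and 2 times before C1qc, at 194 and 157 bases. Of 32851 RefSeq promoter windows of the same length, 29.5% held it. The interferon response motif, GAAA repeated after 2 free bases (2.98% of windows), the STAT letters TTCNNNGAA (7.02%) and the AP-1 letters TGANTCA (6.75%) had no match in either window. A match is a description of letters and not a measured site.

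The genes most like each chain were of varied function. C1qb was most like Coro1a, an actin regulator gene of leukocytes (r = 0.82), and the glutathione transferase gene Gsta4 (0.79). Next came the integrin gene Itgb5 (0.77), the lipid droplet gene Plin2 (0.77) and Ctsd, which encodes a lysosomal protease (0.76). C1qc was most like C1qa, then Cmss1 (0.79), Hax1 (0.78), the cathepsin gene Ctsz (0.77) and Ufc1 (0.77). After C1qc, C1qa was most like Gstm5, a glutathione transferase gene (0.78), Ufc1, a gene of ubiquitin-like conjugation (0.78), the ribosomal protein gene Rpl10 (0.78) and the triglyceride synthesis gene Dgat1 (0.78). Rpl10 correlated with C1qa at 0.85 below 8.2 and at 0.035 above. The mean level of 16 microglia markers correlated at r = 0.58 with C1qa, 0.69 with C1qb and 0.73 with C1qc over 18 arrays. These were 0.71, 0.83 and 0.91 on the arrays with Wfs1 below 8.2 and 0.094, 0.38 and 0.21 on those above. The array ko/KO 4, of the lower set, was the highest both for this mean and for each chain. How far the values of the lower set rest on it was not tested. The relation was not particular to the chains. The same mean correlated with C4b at r = 0.44 over 18 arrays (0.56 below and 0.77 above). With Serping1 it did so at r = 0.54 (0.76 below and 0.12 above). Of the 16 microglia markers, 10 were higher where Wfs1 was below, beside 45.5% of all genes, with a list median of 0.028 (all genes -0.005). Their largest differences were Fcer1g and Fcgr3, genes of immunoglobulin receptors, at 0.125 and 0.11, and the Toll-like receptor partner gene Ly86 at -0.12.

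The correlations of C4b with the chains leaned in part on ko/KO 4. Over 18 arrays they were r = 0.38 with C1qb, 0.33 with C1qc and 0.17 with C1qa. Without ko/KO 4 they were 0.28, 0.19 and -0.010. Since C4b steps between the Wfs1 sets, they are given within the sets too. C4b with C1qb had r = 0.84 over the 10 arrays below 8.2 and 0.54 over the 8 above. C4b with C1qc had 0.60 and 0.61, and C4b with C1qa 0.65 and 0.41. In the lower set without ko/KO 4, an alternative chosen after seeing the data, these were 0.74 with C1qb, 0.31 with C1qc and 0.45 with C1qa (n = 9). With the means of the sets removed, C1qb was at rank 73 of 19936 genes by its likeness to C4b (r = 0.59), C1qc at rank 265 (0.51) and C1qa at rank 940 (0.40), where 95% of all genes had r below 0.40.

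A single array was the highest for all 5 measured genes, ko/KO 4, with C4b at 8.61, C1qa at 8.94, C1qb at 8.38, C1qc at 8.86 and Serping1 at 8.21. That array was the highest for 2.29% of all genes. Its mean level was also the highest of the 18 for the microglia markers (7.60) and for the reactive astrocyte genes (7.89). It ranked sixth for astrocyte markers, 13 for oligodendrocyte markers and 14 for neuronal markers. The part of glial content in these values was not tested.

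Serping1, the C1 inhibitor gene, varied widely, with nearly equal medians in the Wfs1 sets. On the arrays with Wfs1 below 8.2 it ran from 7.23 (wt/WT 2) through a median of 7.66 to 8.21 (ko/KO 4). On those above it ran from 7.37 (ko/KO 2) through 7.655 to 8.05 (ko/KO 1). The sets overlapped over most of their range and the medians differed by 0.005. Its SD over 18 arrays was 0.26 log2 units, exceeded by 3.6% of genes, with a 1.97-fold range.

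The gene most like Serping1 was Dcn, which encodes the matrix proteoglycan decorin of fibroblasts and meninges, at r = 0.92 over 18 arrays and 0.95 and 0.90 within the Wfs1 sets. Prkca, a kinase gene, had r = 0.89, and Nfe2l2, the gene of the oxidative stress factor NRF2, 0.88. They were followed by the matrix gene Ogn at 0.87 and the Mediator subunit gene Med1 at 0.87. Likeness was common for this gene, since 5% of all genes had r above 0.66 with it. Dcn was 8.50, 8.59 and 8.72 on ko/KO 1, ko/KO 4 and ko/KO 5, the 3 arrays on which Serping1 was above 8.0, and at most 8.44 on the others.

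The 8 meningeal and fibroblast markers, which include Dcn and Ogn, had mean levels of 7.58, 7.57 and 7.60 on those 3 arrays, against 7.01 to 7.60 over all 18. Those arrays ranked 3, 4 and 2 of the 18 in this mean. The mean was highest on wt/WT 4 (7.60), where Serping1 was 7.89, and was 7.50 on wt/KO 4, where Serping1 was 7.63. The next array was ko/WT 4 at 7.30, where Serping1 was 7.89. The mean of the 8 markers correlated with Serping1 at r = 0.79 over 18 arrays and 0.79 within each Wfs1 set. The mean of 10 astrocyte markers did so at r = 0.81 (0.87 and 0.80). The parts of meningeal tissue and of astrocytes in the Serping1 level were not tested. Serping1 and C4b correlated at r = 0.41 and -0.091 within the sets, and the former was 0.068 without ko/KO 4. Serping1 correlated at r = 0.49 with C1qc and 0.37 with C1qb over 18 arrays, and these were 0.25 and 0.16 without ko/KO 4.

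**Figure D4:**
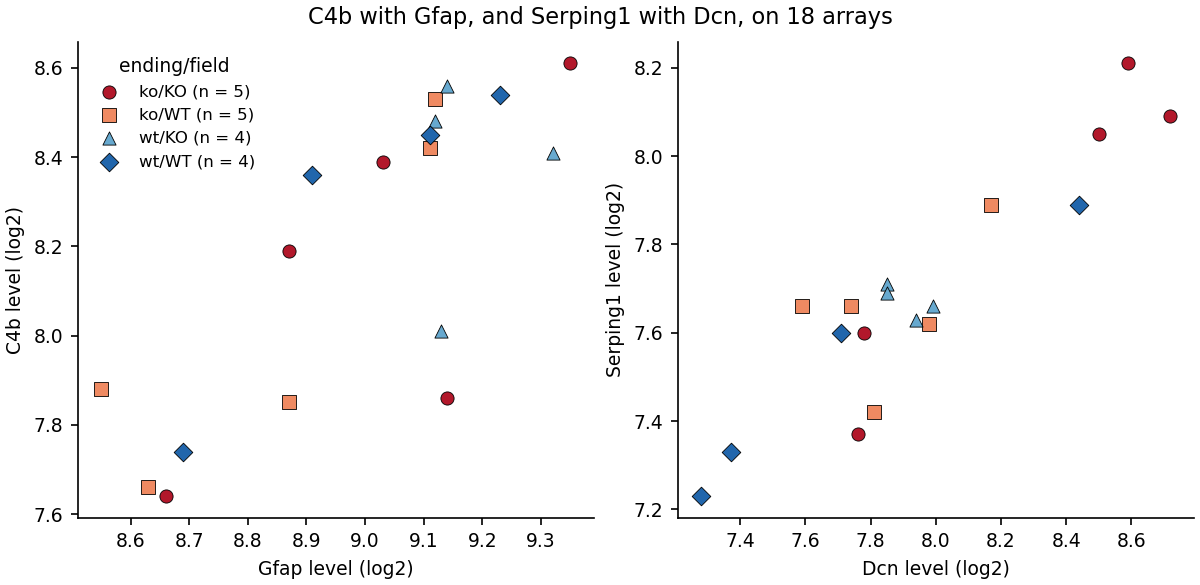
Level of C4b against Gfap (left) and of Serping1 against Dcn (right), in log2 units on all axes, with 1 point per array and shape and colour by title ending and genotype field. C4b and Gfap fall into a higher and a lower cluster with 2 arrays of high Gfap and low C4b, whereas Serping1 follows Dcn along a single line (r = 0.92).

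The other genes of the complement system were higher and lower in near equal numbers between the Wfs1 sets. Of 56 further listed genes 52 were measured, 26 higher and 25 lower by median where Wfs1 was below and 1 equal, with a list median of 0.0025 (all genes -0.005). None had values that did not overlap, beside 0.0201% of all genes. In the classical pathway the protease genes C1ra and C1s1 differed by -0.13 and 0.015, and C2 by 0.065. C1s2 differed by 0.275, but it and C1s1 stayed under 5.81, the lowest of the arrays' lower quartiles, on all 18 arrays.

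In the lectin pathway 3 of 9 were higher and 5 lower, from -0.155 for the mannose-binding lectin gene Mbl1 to 0.06 for Colec10. In the alternative pathway Cfb differed by 0.12 and properdin (Cfp) by -0.15. Terminal pathway genes ran from -0.095 for C8a and C8b to 0.09 for C9. Of 20 inhibitors and regulators, 10 were higher and 10 lower, from -0.165 for Vtn (vitronectin) to 0.12 for the cofactor gene C4bp and the protease gene Cfi. The secreted chaperone clusterin (Clu), an inhibitor of the terminal complex, differed by -0.075. Among 10 receptors 5 were higher and 5 lower, from -0.105 for the C5a receptor gene C5ar1 to 0.135 for the phagocyte receptor gene Vsig4. On all arrays 10 of the 52 genes lay below 5.81: C1s1, C1s2, C6, C9, Cfi, C4bp, Cd55b, C5ar1, Cr2 and Vsig4. The ends of the ranges given for C9, C4bp, Cfi, C5ar1 and Vsig4 thus rest on low signals.

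**Figure D5:**
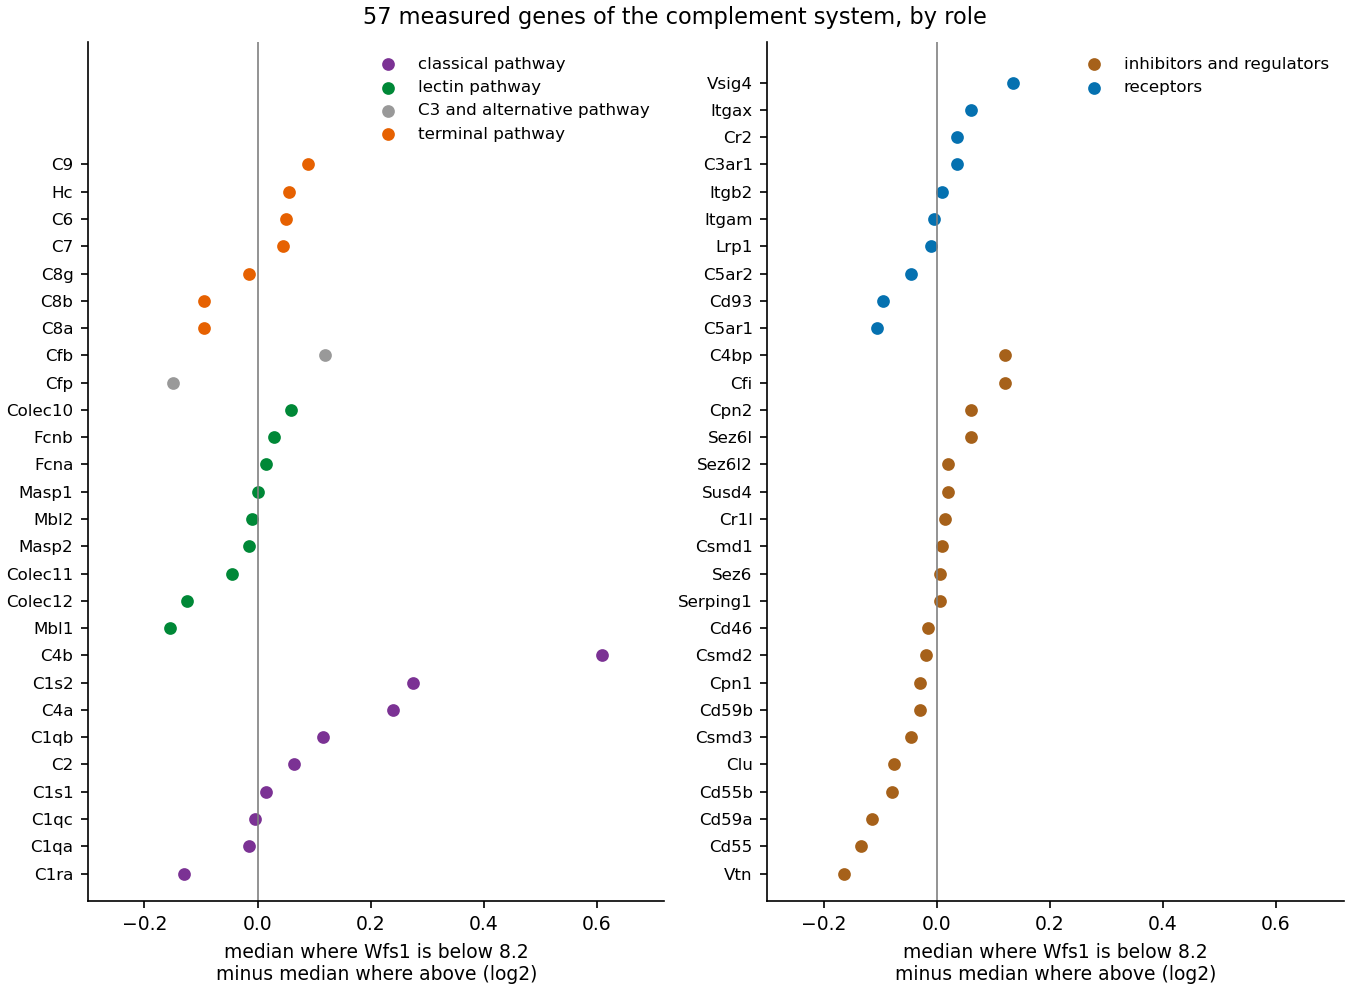
Difference of medians (horizontal axis, log2) between arrays with Wfs1 below and above 8.2 for the 5 measured genes and 52 other complement genes, 1 point per gene, coloured by role. C4b stands at 0.61, C1s2 at 0.275 and C4a at 0.24, and the others lie between -0.165 and 0.135.

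By genotype label, limma called 0 of 19937 genes at a Benjamini-Hochberg adjusted p of 0.05 (0%) in each of 4 tests. These compared the title endings, the genotype fields, the 9 arrays whose labels agree, and the difference by ending between field KO and field WT. Unadjusted p values under 0.05 occurred for 923, 1386, 2218 and 1033 genes. The 5 measured complement genes were among those not called.

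By title ending, C4b ran from 7.64 through a median of 8.035 to 8.61 on the 10 ko arrays and from 7.74 through 8.43 to 8.56 on the 8 wt arrays. The groups overlapped over most of their range. The means were 8.10 ± 0.37 (SD, n = 10) and 8.32 ± 0.29 (SD, n = 8), a difference of -0.22 (SE 0.14, limma adjusted p = 0.884). Serping1 was 7.76 ± 0.29 (SD, n = 10) against 7.59 ± 0.21 (SD, n = 8), a difference of 0.16 (SE 0.11, limma adjusted p = 0.884). The differences were 0.079 for C1qa, 0.020 for C1qb and 0.11 for C1qc (SE 0.071, 0.075 and 0.066, limma adjusted p from 0.884 to 0.967). Without ko/WT 4 and wt/WT 3 the C4b difference was -0.13. The mean was higher in ko arrays for 4 of 5 genes, beside 51.8% of all genes.

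By genotype field, C4b ran from 7.64 through 8.39 to 8.61 on the 9 KO arrays and from 7.66 through 8.36 to 8.54 on the 9 WT arrays. The difference in means was 0.080 (SE 0.15, limma adjusted p = 0.886), opposite in sign to that by ending. Leaving out ko/WT 4 took it to 0.018, and leaving out ko/KO 2 to 0.15. Serping1 differed by 0.19 (SE 0.11, limma adjusted p = 0.695), C1qb by 0.11, C1qc by 0.066 and C1qa by 0.0033. All 5 means were higher with KO, beside 47.2% of all genes.

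Where both labels agree, C4b was 7.86, 7.64, 8.19, 8.61 and 8.39 on the 5 ko/KO arrays and 8.45, 8.36, 8.54 and 7.74 on the 4 wt/WT arrays. Both groups held high and low arrays. The difference was -0.13 (SE 0.19, limma adjusted p = 0.783), and it ran from -0.31 without wt/WT 4 to -0.010 without ko/KO 2, and was -0.045 without wt/WT 3. Serping1 was 8.05, 7.37, 7.60, 8.21 and 8.09 on ko/KO and 7.33, 7.23, 7.60 and 7.89 on wt/WT. Its 3 highest values were on ko/KO arrays, the groups overlapped, and the difference was 0.35 (SE 0.17, limma adjusted p = 0.461). Those 3 arrays and the next highest, ko/WT 4 and wt/WT 4 (7.89 each), lay close together by the first number in each title. Between them by that number lay wt/KO 4 (7.63) and ko/WT 5 (7.62). What the first number stands for was not examined, and its part in the Serping1 difference was not tested. The C1q chains differed by 0.094, 0.14 and 0.19 for A, B and C (limma adjusted p from 0.518 to 0.760). Thus 4 of 5 had a higher mean on the ko/KO arrays, beside 49.5% of all genes. Without ko/KO 4 these chain differences were -0.0050, 0.063 and 0.098.

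The difference by ending did not pass the threshold for differing between field KO and field WT in any of the 5 genes, with limma adjusted p from 0.927 for C1qc to 0.998 for C4b. Among the 52 other measured complement genes the mean was higher in arrays ending ko for 20 and lower for 32, with a list median of -0.018 (all genes 0.0030) and 0 called. By field 22 were higher with KO and 30 lower, with a median of -0.021 (all genes -0.0056) and 0 called. Where the labels agree, 22 were higher and 30 lower, with a median of -0.040 (all genes -0.0015) and 0 called. In that comparison Cfi, the gene of the protease that cleaves C4b and C3b, differed by -0.45 (SE 0.11, limma adjusted p = 0.384), on a probeset that was at most 5.73 on any array.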

How the data were processed

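Hypothalamic total RNA was hybridised after whole-transcript labelling, per the labels' protocols. The deposited log2 values, 1 per probeset and array, were used as the authors normalized them. Both RMA and MAS5 appear in the submitters' processing notes, with no role or version. The log2 scale was read from the values (1.11 to 14.54). RMA, where used, compresses small differences at low signal. Scanner files, detection calls and scan batches were not analysed here. Of 34760 probesets 21640 had 1 gene symbol, 1321 several and 11799 none. Entrez identifiers matched RefSeq (GRCm38.p6) for 21553 and changed 0 symbols. The brightest single-gene probeset stood for each of 19937 genes, and each of the 5 measured members had 1. Differences by label were fitted with limma 3.58.1 (lmFit and eBayes, R 4.3.3), adjusted over all genes at 0.05, and the fit was tested on simulated data. Differences between the Wfs1 sets (at 8.2) are medians below minus medians above, with no test. The members and lists were chosen with earlier results of these data known. The named genes are the members, their 5 most like genes (for C4b also the 5 least like), all complement genes, and of other lists up to 3 with the largest difference between the Wfs1 sets, besides those that do not overlap. Predicted genes and clones were passed over. Promoter letters are from RefSeq, and those of C1qb and C1qc are printed. Alternatives were the mean of probesets, quantile normalization, no dim genes, an intensity trend, array weights, and leaving out arrays.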

Additional observations from a re-analysis of the deposited data

Results flagged for a closer look

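Of 40 sets of values (5 genes in 8 groups of arrays by label), 3 held a value far from the others, where chance flags about 1 in 20. On ko/KO 4, C1qc was 8.86, the highest both of the 10 arrays ending ko (next 8.57) and of the 9 arrays of field KO (next 8.54). On wt/WT 3, C1qb was 8.18, the highest of the 4 wt/WT arrays (next 7.88). No difference by ending was called as differing between field KO and field WT.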

How the results depend on the processing

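The count of called genes was 0 in the 4 label tests under every alternative run. These were the mean of probesets, quantile normalization, leaving out the dimmest 40% of genes, an intensity trend and array weights. The others left out ko/WT 4 and wt/WT 3 together, or each array. Unadjusted p values under 0.05 occurred for 478 of 11963 genes (by ending, without dim genes) to 4729 of 19937 (agreeing arrays without ko/KO 2). With 19937 genes tested the lowest count was 563 (by ending, without wt/WT 2). The C4b difference between the Wfs1 sets ran from 0.595 to 0.625 without 1 array and was 0.62 as a difference of means. C1qa by field turned to -0.020 after quantile normalization, and without 1 array ran from -0.044 to 0.047. C1qb by ending ran from -0.017 to 0.048, and C1qa on the agreeing arrays from -0.0050 to 0.18, each lowest without ko/KO 4. The cause was not tested. Without 1 array, r ran from 0.71 to 0.92 for C1qa with C1qc, from -0.22 to 0.47 for C1qa with Serping1, and from 0.25 to 0.62 for C1qc with Serping1, whose rho was 0.26. No paired analysis was possible because the labels give no replicate number shared between groups. The number of arrays and the unknown detection calls limit the precision.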
